A study of Mus musculus with 5 samples.

Results

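The mitochondrial genome of the mouse encodes a small set of proteins that are all core subunits of the respiratory chain or of ATP synthase. The 9 genes described here were chosen by symbol: mt-Nd1, mt-Nd2, mt-Nd4 and mt-Nd5 (complex I), mt-Cytb (complex III), mt-Co1, mt-Co2 and mt-Co3 (complex IV) and mt-Atp6 (complex V). All 9 were found among the 28692 gene identifiers of the droplet files, which hold 13 mt- genes in all. The other 4 (mt-Nd3, mt-Nd4l, mt-Nd6 and mt-Atp8) are given beside them.

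Single-cell RNA was measured in kidneys of C57/BL6 mice aged 8 week in a model of unilateral ureteric obstruction (UUO), a surgical block of 1 ureter that can later be undone. The 4 droplet libraries, in which each captured molecule is counted once by its unique molecular identifier (UMI), came from kidneys after sham surgery (day 0), from kidneys obstructed for 2 and for 7 days (day 2 and day 7), and from kidneys 7 days past reversal of the obstruction, on experimental day 14 (reversed UUO). Each library came from 3 pooled mice and was the only one of its group, so no test between time points was possible, animals cannot be separated, and every interval below covers counting error only. A further sample of 768 Smart-seq2 wells mixed all time points. No transgene, deletion or drug is named in the labels of any group.

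Mitochondrial DNA is transcribed from each strand as a long precursor, which is cut at the transfer RNAs between the genes, and most of the resulting messenger RNAs then receive a short poly(A) tail. Of the protein genes, mt-Nd6 alone lies on the light strand and the others lie on the heavy strand. In the kidney, the proximal tubule and the thick ascending limb are rich in mitochondria because sodium reabsorption there is driven by ATP from respiration.

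In sham kidney the median cell held 38.4% of its UMIs in these 9 genes, and on day 7 it held 2.93%. The genes and their last 18 bases are given first, since a droplet library of this kind captures messenger RNA at its poly(A) tail. The sequences show where each annotated gene ends, which need not be the end of its messenger RNA; capitals mark the stop codon, or the lone T that polyadenylation completes to a stop codon. They were taken from GENCODE M21 transcripts on the GRCm38 build, forward strand, 5′ to 3′.
mt-Nd1: gtaccaccatacataTAG
mt-Nd2: ccccaactaattaccTAG
mt-Nd4: ttacaggcctgacaataT
mt-Nd5: tcaattaatctcgagTAA
mt-Cytb: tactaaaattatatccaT
mt-Co1: tatgtaaaagtaaaaTAA
mt-Co2: tctgcttcaataattTAA
mt-Co3: tttattgatgaggatctT
mt-Atp6: ctacatgataatacaTAA
In mt-Nd4, mt-Cytb and mt-Co3 the annotated gene ends with that lone T, so their reading frames have no complete stop codon before the tail is added.

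Each gene is annotated as an intron-free protein-coding gene of chromosome M. In the order of the genome, mt-Nd1 (ENSMUSG00000064341) lies at 2751 to 3707, mt-Nd2 (ENSMUSG00000064345) at 3914 to 4951 and mt-Co1 (ENSMUSG00000064351) at 5328 to 6872. mt-Co2 (ENSMUSG00000064354) follows at 7013 to 7696, mt-Atp6 (ENSMUSG00000064357) at 7927 to 8607 and mt-Co3 (ENSMUSG00000064358) at 8607 to 9390. mt-Nd4 (ENSMUSG00000064363) lies at 10167 to 11544, mt-Nd5 (ENSMUSG00000064367) at 11742 to 13565 and mt-Cytb (ENSMUSG00000064370) at 14145 to 15288. Neighbours share bases: mt-Atp6 overlaps mt-Atp8 by 43 bases and mt-Co3 by 1 base, mt-Nd4 overlaps mt-Nd4l by 7 bases, and mt-Nd5 overlaps the antisense mt-Nd6 by 14 bases. Where the overlapping genes lie on the same strand, UMIs from the shared bases cannot be assigned by sequence alone. The genes are listed lengthwise from 681 bases (mt-Atp6) to 1824 bases (mt-Nd5).

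All deposited cells with at least 200 genes were used, with no limit on the mitochondrial share: 5540 sham, 2679 day 2, 4501 day 7 and 3650 reversed cells. Sham cells were the shallowest, with a median of 2593 UMIs, against 5697 on day 2, 5670 on day 7 and 4768.5 in reversed UUO. Cells were assigned to 15 classes by 8 marker genes each, and 9.84%, 22.3%, 16.4% and 17.3% of the cells met no class. In the cells of every class, the 10 genes with the highest fold held more of that class's own markers than of any other class, although the urothelium class held 1 cell. Class names below mean cells that resemble the class by these markers. Between 16 and 39 cell barcodes were shared by any pair of libraries, under 1% of either.

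The share of a cell's UMIs held by the 9 genes was lowest on day 7 and highest in sham. Over all cells its median was 38.4% in sham (quartiles 28.8 and 52.0%), 14.8% at day 2 (3.81 and 34.5%), 2.93% at day 7 (2.20 and 5.30%) and 12.9% after reversal (3.44 and 34.2%). The quartile ranges of sham and day 7 did not overlap, and those of day 2 and reversed UUO nearly coincided. UMIs summed over cells gave shares of 39.2% (95% exact Clopper-Pearson interval 39.2 to 39.3%), 18.4% (18.4 to 18.4%), 5.45% (5.44 to 5.45%) and 18.5% (18.5 to 18.5%). On the log2 scale, the summed share was lower by −1.09 on day 2 than in sham and lower by −1.76 on day 7 than on day 2. It was higher by 1.77 after reversal than on day 7 and stood at −1.08 relative to sham. Cells with more than 50% of their UMIs in all 13 mt- genes numbered 1607 in sham, 472 at day 2, 54 at day 7 and 414 after reversal.

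Every member differed in the same direction over all cells. All 9 were lower on day 2 than in sham, between −1.23 (mt-Nd4) and −0.95 (mt-Co1) on the log2 scale, and 8 of 9 passed 2-fold, where 5.31% of 13589 genes did so downwards. All 9 passed 2-fold downwards on day 7 against day 2, between −2.07 (mt-Cytb) and −1.52 (mt-Co1), where 3.68% of 14500 genes did so. All 9 passed 2-fold upwards after reversal against day 7, where 5.82% of 14764 genes did so. Against sham, 9 of 9 were lower after reversal and 5 passed 2-fold, where 2.04% of 14079 genes did. The comparisons share libraries, and the median log2 ratio of all genes was 0.53, 0.14, −0.06 and 0.64 in the same order of comparisons. No member passed 2-fold in the other direction, where 25.9%, 7.76%, 4.33% and 31.6% of genes did.

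The cell classes differed far more in mitochondrial share than the time points did within most classes. Proximal tubule-like cells, which reabsorb most of the filtered salt, glucose and amino acids, had a median share of 38.8% in sham (4279 cells), 27.0% at day 2 (706 cells), 22.6% at day 7 (173 cells) and 33.1% after reversal (1336 cells). Mononuclear phagocyte-like cells, the macrophages, monocytes and dendritic cells of the kidney, had 4.56% (48 cells), 3.23% (536 cells), 2.60% (2494 cells) and 3.23% (585 cells). Within a library, the proximal tubule median was 8.50, 8.35, 8.69 and 10.2 times the phagocyte median. That ratio differed little between libraries although both medians did. The proximal tubule was higher in 4 of 4 libraries, by 26.9 ± 6.32 percentage points (SD, n = 4; exact two-sided sign-flip permutation test, p = 0.125, the smallest that 4 libraries allow; Benjamini-Hochberg 0.188 over 6 class pairs).

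Thick ascending limb-like cells, which carry the Na-K-2Cl cotransporter Slc12a1, had the widest range over time of the 6 classes described in every library. Their median share was 48.6% in sham (281 cells), 23.7% at day 2 (299 cells), 9.65% at day 7 (84 cells) and 23.8% after reversal (210 cells). The sham median was 5.04 times that of day 7, against 1.72 times in the proximal tubule. The limb therefore changed its place: its median was 1.25 times the proximal tubule median in sham, 0.879 times at day 2, 0.427 times at day 7 and 0.721 times after reversal. It was above the proximal tubule in 1 of 4 libraries, with a mean difference of −3.88 ± 9.99 points (SD, n = 4; exact sign-flip p = 0.5). On the log2 scale its summed share was lower by −0.90 from sham to day 2 and by −1.08 from day 2 to day 7, then higher by 0.97 from day 7 to reversal, which left it at −1.01 relative to sham.

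The other tubule classes lay on either side of these. Principal-like cells, the water- and sodium-transporting cells of the collecting duct, had medians of 29.9%, 18.7%, 10.9% and 21.8% in the order sham, day 2, day 7, reversed (81, 105, 74 and 58 cells). Principal cells were below the proximal tubule in 4 of 4 libraries, by 10.0 ± 1.68 points (SD, n = 4; exact sign-flip p = 0.125). Intercalated-like cells, which secrete acid or base, had 29.7%, 13.6%, 19.0% and 19.3% (35, 91, 32 and 67 cells), with their lowest value on day 2. Distal convoluted or connecting tubule-like cells had the highest medians of sham and reversed UUO, 50.9% in sham (35 cells) and 39.9% after reversal (29 cells). They numbered 7 on day 2 and 15 on day 7, too few to describe.

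Endothelial-like cells had 4.23%, 3.40%, 2.47% and 2.98% (214, 165, 482 and 386 cells). Their medians were 0.926, 1.05, 0.95 and 0.922 times those of the phagocytes, and the order of these classes differed between libraries. T cell-like cells had 3.69% on day 2, 2.92% on day 7 and 3.31% after reversal (106, 260 and 255 cells; sham held 17). Fibroblast or mural-like cells had 3.34% on day 7 and 4.10% after reversal (57 and 52 cells). Natural killer-like cells had 3.18% on day 2 and 2.35% on day 7 (23 and 39 cells), B cell-like cells had 4.46% after reversal (21 cells), and neutrophil-like cells had 1.66% on day 7 (29 cells), the lowest median of any class described, although their summed share was 6.94%. Among the 6 classes described in every library, sham was highest in 6 and day 7 was lowest in 5, the exception being the intercalated class. By summed share that class was lowest on day 7 as well, at 15.1% against 16.2% on day 2.

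**Figure D1:**
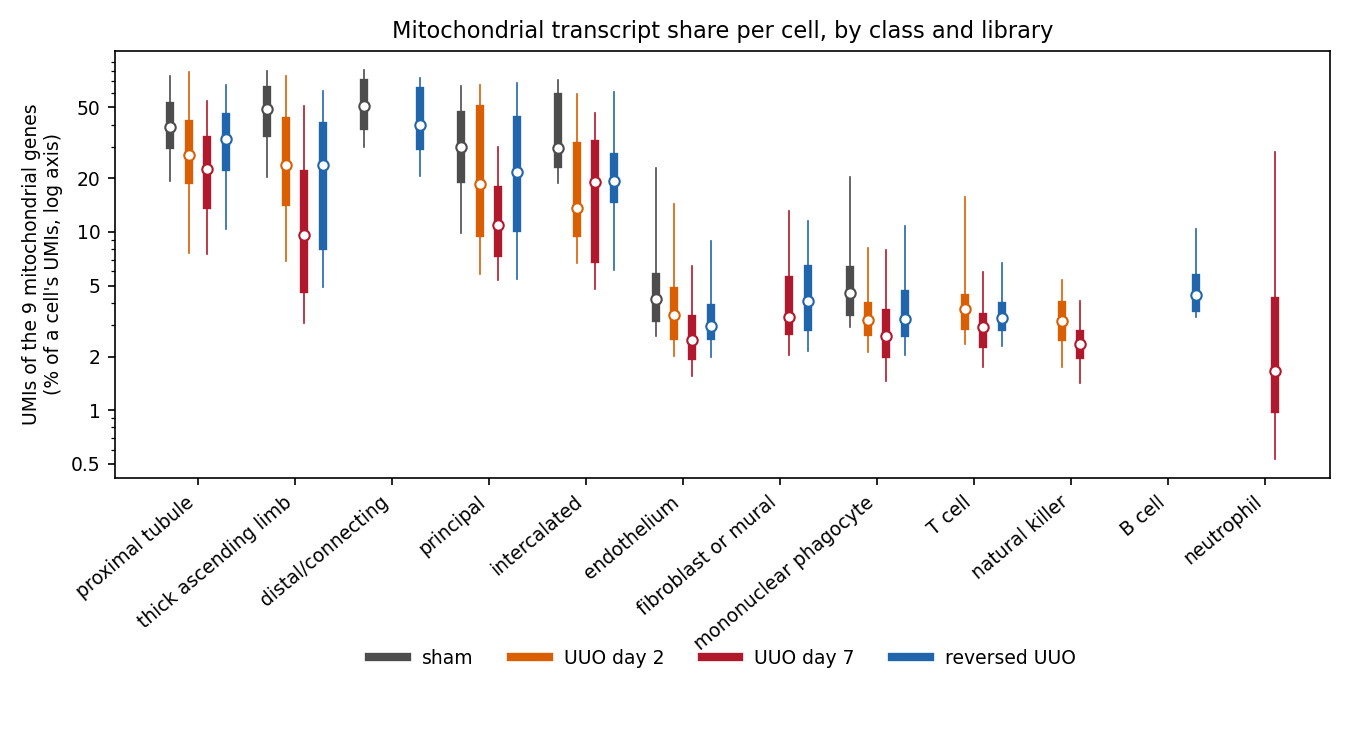
Share of each cell's UMIs held by the 9 mitochondrial genes (percent, log axis) by class and library; circles are medians over cells, thick bars the quartiles and thin lines the 5th to 95th percentiles. Tubule classes lie mostly between 10 and 50%, and endothelial, stromal and immune classes mostly between 2 and 5%; classes with under 20 cells in a library are not drawn.

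Because the libraries differed in their classes, the mean share was also computed with the mix of wide groups held fixed. These were proximal tubule, other tubule, endothelium, phagocytes, lymphocytes, and a remainder of other and unclassed cells. The mean share per cell was 40.4% in sham, 24.0% at day 2, 6.24% at day 7 and 21.2% after reversal. With the group mix of sham, the means of the 3 other libraries became 31.4%, 21.8% and 31.6%. With the group levels of sham and each library's own mix, they were 31.8%, 16.7% and 30.5%. Both the mix of groups and the level within groups thus differed between time points. Proximal tubule cells were 77.2% of sham cells and 3.84% of day 7 cells. The remainder was 9.87% of sham cells and 18.5% of day 7 cells, with mean shares of 43.4% and 11.1%. It is itself mixed, so its level also depends on which cells it holds.

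Within the proximal tubule the members' shares were closer between time points. The summed share was 40.8% in sham, 31.1% at day 2, 21.4% at day 7 and 33.4% after reversal. Day 2 stood at −0.39 relative to sham on the log2 scale, day 7 at −0.54 relative to day 2, and reversed UUO at 0.64 relative to day 7 and −0.29 relative to sham. The first became −0.16 with classes called at 500 non-mitochondrial UMIs per cell, and the second became −0.26 as a median over cells. None of the 9 genes passed 2-fold in any of these comparisons, where 1.47%, 1.57%, 2.29% and 0.128% of the genes tested did in the direction of the summed share and 8.64%, 7.79%, 7.91% and 8.77% in the other direction. All 9 were lower on day 2 than in sham (−0.50 for mt-Nd1 to −0.30 for mt-Nd2), lower on day 7 than on day 2, and higher after reversal than on day 7. Against sham, 7 were lower after reversal and 2, mt-Nd2 at 0.13 and mt-Nd5 at 0.06, were higher. Per 100 non-mitochondrial UMIs these 2 were lower as well, mt-Nd2 at 2.32 against 2.37 in sham and mt-Nd5 at 0.518 against 0.558.

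In phagocytes the summed share was 6.25% in sham, 3.74% at day 2, 3.20% at day 7 and 3.91% after reversal, with log2 ratios of −0.74, −0.23, 0.29 and −0.68 in the order of comparisons above (the first with an exact interval of −0.77 to −0.71). mt-Nd5 passed 2-fold downwards on day 2 against sham (1 of 9 genes), where 10.5% of genes did, and mt-Cytb did so after reversal against sham (1 of 9), where 6.5% did. No member passed 2-fold on day 7 against day 2 (2.37% of genes downwards) or after reversal against day 7 (1.77% upwards), and none did so in the other direction in any of the 4, where 24.2%, 10.2%, 1.81% and 22% of genes did. Markers of proximal tubule were measured in the same phagocytes as a sign of RNA from other cells. They made up 0.0899% of non-mitochondrial UMIs in sham phagocytes, 0.0113% at day 2, 0.00919% at day 7 and 0.0448% after reversal, against 1.64% in sham proximal tubule cells. These levels were highest in the libraries with the highest phagocyte share, and their part in the result was not tested. Among phagocytes without any UMI of the proximal tubule markers (202 day 2, 1564 day 7 and 56 reversed cells), the log2 ratio was −0.10 from day 2 to day 7 and 0.40 from day 7 to reversal. Sham held 5 such cells, too few to describe.

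A share has 2 parts, and in the proximal tubule the nuclear part differed more. The median proximal tubule cell held 1023 UMIs of the 9 genes in sham, 1279 at day 2, 1109 at day 7 and 1545.5 after reversal. Its UMIs of non-mitochondrial genes were 1450, 2883.5, 3468 and 2803.5 in the same order. The mitochondrial UMIs per cell were therefore lowest in sham, the library in which their share was highest. In the thick ascending limb, the median mitochondrial UMIs were 1287, 1798, 791 and 1159, and the non-mitochondrial UMIs were 1241, 4654, 7409 and 3872.5. Depth differs between the libraries, so a change in mitochondrial transcripts per cell, a change in other transcripts per cell and a change in capture cannot be told apart.

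**Figure D2:**
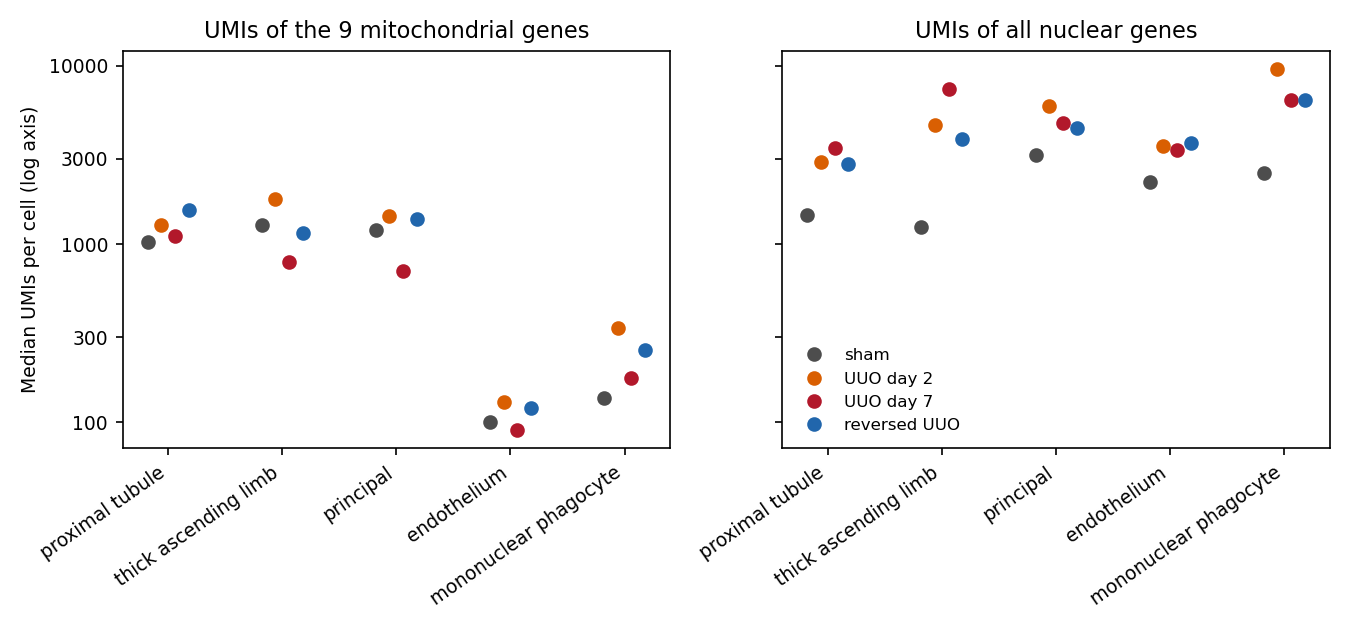
Median UMIs per cell in 5 classes and 4 libraries (log axis), for the 9 mitochondrial genes (left) and for all genes that are not mt- genes (right). In the proximal tubule the mitochondrial medians lie between 1023 and 1545.5, while the non-mitochondrial medians lie between 1450 (sham) and 3468 (day 7).

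Cells of the same class and library also differed. Among sham proximal tubule cells the share ranged from 1.81 to 94.5%, and cells above the upper quartile of share had a median of 726 non-mitochondrial UMIs against 2013.5 below the lower quartile. Across proximal tubule cells the share was inversely related to non-mitochondrial UMIs, with Spearman coefficients of −0.52 in sham, −0.61 at day 2, −0.63 at day 7 and −0.55 after reversal. In endothelial cells the same coefficients were −0.33, 0.00, 0.04 and −0.01. The share contains the non-mitochondrial UMIs in its denominator, so these coefficients describe the cells and carry no p-value.

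Summed over cells, proximal tubule cells below the lower quartile of mitochondrial share were the richest in Malat1, a long non-coding RNA retained in the nucleus. In sham, Malat1 stood at 46354 CPM of non-mitochondrial UMIs in that lowest group and at 10679, 9843 and 19319 CPM in the others, from low to high share. After reversal it stood at 121282 CPM in the lowest group and at 36898, 19235 and 26533 CPM in the others. On day 2 it was 87540 CPM in the lowest group and between 26724 and 41673 CPM in the others, and on day 7 it was 110427 CPM against 52986 to 82982 CPM. The lowest group was highest in these sums in 4 of 4 libraries. Cell by cell there was little relation: Spearman coefficients of share against Malat1 were 0.05 in sham, 0.04 on day 2, −0.23 on day 7 and −0.13 in reversed UUO. In sham the make-up of the mitochondrial UMIs differed little across those groups, with mt-Nd1 between 12.1 and 12.3% of the UMIs of the 9 genes and mt-Atp6 between 19.7 and 20.2%. On day 7 it differed more: from the lowest to the highest group, mt-Co1 went from 14.4 to 11.8%, mt-Nd5 from 1.1 to 0.84% and mt-Atp6 from 18.7 to 20.4%.

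Some proximal tubule cells held a UMI of Havcr1 (kidney injury molecule 1) or Krt20 (a keratin of injured tubule): 0.0935% of sham cells (4 cells; 95% exact interval 0.0255 to 0.239%), 20.5% of day 2 cells (17.6 to 23.7%), 27.7% of day 7 cells (21.2 to 35.1%) and 1.57% of reversed cells (0.976 to 2.39%). Endothelial cells, which should lack these genes, gave 0%, 1.21%, 3.73% and 0.777%, and phagocytes gave 2.08%, 4.66%, 6.01% and 0.513%, at median depths of 2216.5 to 3709.5 and 2500 to 9604.5 non-mitochondrial UMIs. The proximal tubule share stood above both on day 2 and day 7, and in reversed UUO its interval overlapped that of endothelium (0.161 to 2.25%), so sham and reversed cells are not described. Cells with such a UMI had median mitochondrial shares of 21.4% against 28.9% in the others on day 2 (145 and 561 cells) and 15.1% against 24.6% on day 7 (48 and 125 cells). They were also deeper, with 3821 and 7480.5 non-mitochondrial UMIs against 2655 and 2975, and a deeper cell is both likelier to show a UMI and lower in share. Among day 2 cells with 2000 to 6000 non-mitochondrial UMIs, a limit chosen after seeing the data, the medians were 21.2% against 24.8% (84 and 326 cells), a difference of −3.64 points where it had been −7.50. On day 7 that limit left 13 cells with such a UMI, too few to describe.

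The order of the 9 genes by their part of the mitochondrial UMIs was led by mt-Co3 and mt-Atp6. mt-Co3, a core subunit of cytochrome c oxidase, held 20.2% of the UMIs of the 9 genes in sham, 20.4% at day 2, 22.4% at day 7 and 21.8% after reversal. mt-Atp6, the proton channel subunit of ATP synthase, held 20%, 20.6%, 20.8% and 19.2%. mt-Co1, the catalytic subunit of cytochrome c oxidase, held 13.1%, 14.5%, 17% and 14.4%. mt-Cytb, the cytochrome b of complex III, was at 13.0%, 12.8%, 10.3% and 11.4%, and mt-Nd1, a membrane subunit of complex I, was at 11.7%, 10.8%, 8.91% and 9.95%. mt-Co2, the subunit that accepts electrons from cytochrome c, was the steadiest, at 9.66%, 9.68%, 9.79% and 9.71%. The other complex I subunits held smaller parts: mt-Nd4 at 8.26%, 7.54%, 6.77% and 8.28%, mt-Nd2 at 3.30%, 3.10%, 3.23% and 4.17%, and mt-Nd5 at 0.761%, 0.704%, 0.743% and 0.955%. As a mean over cells, the difference of mt-Atp6 and mt-Nd4 between reversed UUO and sham, and that of mt-Nd2 and mt-Nd5 between day 7 and day 2, turned direction. Over the 35 class and library sums, mt-Co2 ranged from 9.04 to 10.5%, mt-Nd1 from 7.33 to 12.3%, mt-Nd2 from 2.40 to 4.54% and mt-Nd5 from 0.596 to 1.13%.

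Scaled to gene length and to a total of 100, the order in sham was mt-Atp6 (26.5), mt-Co3 (23.2), mt-Co2 (12.7), mt-Nd1 (11.1), mt-Cytb (10.3), mt-Co1 (7.63), mt-Nd4 (5.41), mt-Nd2 (2.86) and mt-Nd5 (0.376). A 3′ library counts transcript ends, so longer genes are not expected to give more UMIs, and both scales are given. mt-Nd5 was lowest on either scale. It was also the member most often missed: 96.4% of sham cells, 91.0% of day 2 cells, 69.6% of day 7 cells and 90.5% of reversed cells held a UMI of it. Every other member was found in at least 95.6% of the cells of every library.

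The make-up differed between classes of the same library. mt-Co1 held a larger part in the thick ascending limb than in the proximal tubule: 17.4% against 12.3% in sham, 16.8% against 12% at day 2, 18.1% against 12.9% at day 7 and 19.2% against 12.9% after reversal. The difference was 5.33 ± 0.696 points (SD, n = 4; exact two-sided sign-flip p = 0.125, the smallest possible), and the values of the classes did not overlap. mt-Nd1 was at the same time smaller there in 4 of 4 libraries, by −2.87 ± 0.692 points (SD, n = 4; exact p = 0.125), for example 8.79% against 12.2% in sham. Principal cells differed from the proximal tubule in the same way, with mt-Co1 larger by 4.89 ± 1.64 points and mt-Nd1 smaller by −2.62 ± 0.602 points (SD, n = 4; exact p = 0.125 for both). In phagocytes mt-Atp6 held the larger part in 4 of 4 libraries, 23.4%, 24.7%, 22.9% and 22.2% against 20.1%, 20.5%, 19.6% and 19.2% in the proximal tubule. That difference was 3.49 ± 0.550 points (SD, n = 4; exact p = 0.125). Of the 36 gene and class comparisons made, 23 reached the smallest p of 0.125, and the lowest Benjamini-Hochberg value was 0.196, so none could pass 0.05 with 4 libraries.

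**Figure D3:**
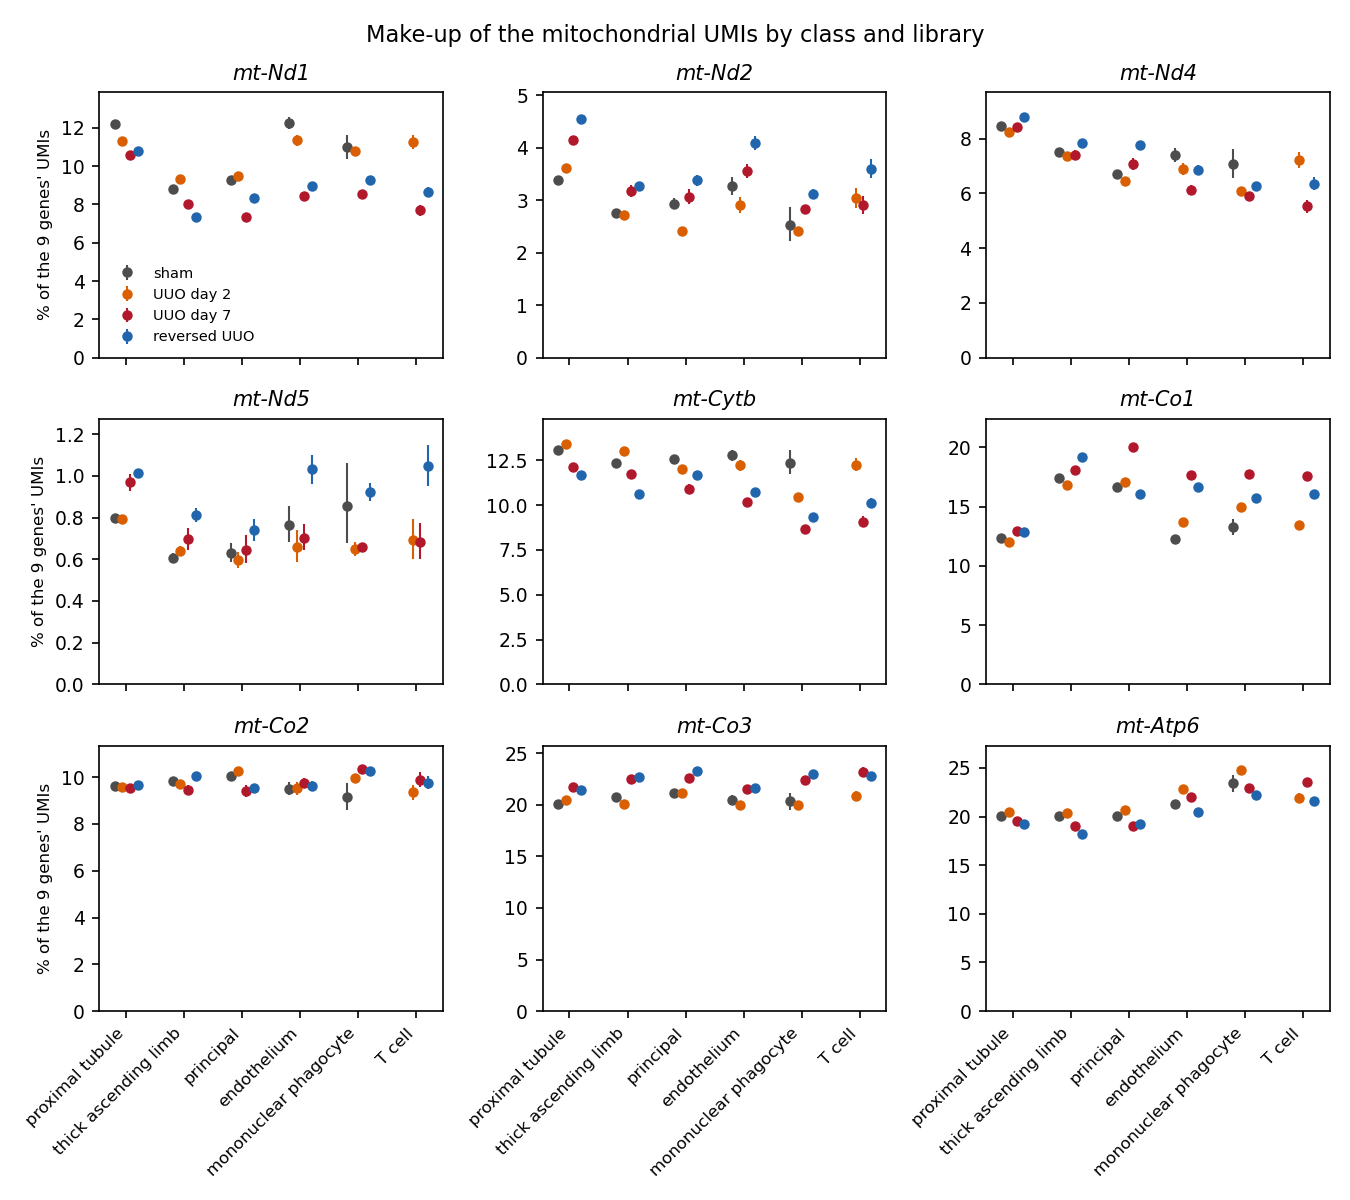
Percent of the UMIs of the 9 genes held by each gene, by class (x axis) and library (colour); points are sums over cells and bars are 95% exact intervals. mt-Co1 lies higher and mt-Nd1 lower in the thick ascending limb and principal cells than in the proximal tubule in all 4 libraries. mt-Co2 stays within 9.04 to 10.5%, a range whose ends come from classes not drawn.

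Some shifts of make-up ran through every class. On day 7 against day 2, mt-Co1 and mt-Co3 held larger parts in 8 of 8 classes and mt-Cytb a smaller part in 8 of 8. The median log2 differences over the classes were 0.18, 0.13 and −0.23. After reversal against sham, mt-Nd2, mt-Nd5 and mt-Co3 were larger in 7 of 7 classes (medians 0.27, 0.35 and 0.13), and mt-Nd1, mt-Cytb and mt-Atp6 were smaller in 7 of 7 (−0.25, −0.18 and −0.06). On day 2 against sham, mt-Atp6 was larger in 6 of 6 classes (median 0.05) and mt-Nd4 smaller in 6 of 6 (−0.05). Classes of 1 library share its preparation and free RNA, so a shift shared by all classes of a library cannot be told apart from a difference between libraries.

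The 4 other mt- genes showed the largest such shift. Per 1000 UMIs of the 9 genes, mt-Atp8 gave 2.25 in sham, 2.19 at day 2, 3.19 at day 7 and 5.14 after reversal. mt-Nd4l, another complex I subunit, gave 5.55, 5.17, 6.77 and 10.8, and mt-Nd3 gave 13.7, 14.2, 13.2 and 19.8. Reversed UUO was the highest library for these. The light-strand gene mt-Nd6 gave 0.169, 0.195, 0.497 and 0.578, so day 7 and reversed UUO were both high. After reversal against sham all 4 were higher in 7 of 7 classes, with median log2 differences of 1.15, 0.88, 0.49 and 1.68 in the order mt-Atp8, mt-Nd4l, mt-Nd3, mt-Nd6. The mt-Nd6 values are sparse, with 1 UMI in all sham phagocytes.

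Across cells the members varied together. The level of each member was correlated with that of the other 8 within a class and library. In the proximal tubule, the coefficients lay between 0.654 and 0.974 in sham and between 0.802 and 0.986 after reversal, with mt-Nd5 lowest in both. In T cells, where counts are low, they ranged from 0.200 to 0.821 on day 7. These Pearson coefficients describe cells of 1 library and rest in part on shared depth and RNA content.

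The mitochondrial proteins work in complexes with subunits encoded in the nucleus. A list of 40 nuclear-encoded respiratory chain genes differed in the same direction over all cells: 40 of 40 were lower on day 2 than in sham (median log2 −0.54), 40 of 40 lower on day 7 than on day 2 (−0.44), 40 of 40 higher after reversal than on day 7 (0.51) and 40 of 40 lower than in sham (−0.43). None passed 2-fold, where 5.31%, 3.68%, 5.82% and 2.04% of all genes tested did in those directions, so a count of 0 among 40 genes is close to these shares. The medians over all genes tested were 0.53, 0.14, −0.06 and 0.64. Within the proximal tubule 37 of 40 were lower on day 2 than in sham (median −0.26, against 0.29 over all genes tested). On day 7 against day 2, however, 26 were higher and 14 lower (median 0.05, against 0.27 over all genes tested), and the 9 mitochondrial genes had a median of −0.52. After reversal 35 were higher and 5 lower than on day 7 (median 0.19, against −0.28). Relative to sham 25 were lower and 15 higher after reversal (median −0.03, against 0.28). As a percent of non-mitochondrial UMIs the list held 6.28%, 4.46%, 3.95% and 5.49% in the proximal tubule and 7.01%, 4.26%, 3.24% and 4.28% in the thick ascending limb. The ratios above are instead scaled to all UMIs, mitochondrial ones included. For day 7 against day 2 in the proximal tubule the scales thus point in opposite directions. In phagocytes it held 1.47%, 1.74%, 1.5% and 1.45%, so there day 2, and not sham, was the highest library.

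By a rule that ranked nuclear genes on their correlation with the mitochondrial share over 31 class and library sums, the 10 most alike of 3371 genes had Pearson coefficients of 0.96 to 0.98. They were Usmg5, Uqcr10, Ndufb2, Ndufb6, Cox6c, Atp5k, Phyh, Uqcr11, Ndufb9 and Anapc13. Most of these names denote respiratory chain or ATP synthase subunits, and the exceptions include Phyh, a peroxisomal enzyme, and Anapc13, a subunit of the anaphase-promoting complex. The 40 genes of the list had coefficients of 0.83 to 0.97 with a median of 0.94, against a median of 0.06 over all genes compared. Within the 17 tubule sums the 10 genes had coefficients of 0.82 to 0.95, and within the 14 other sums 0.22 to 0.71. The genes were chosen on all 31 sums, which include these, so the split is no separate test. The sums share libraries and cells, so no p-value is given.

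**Figure D4:**
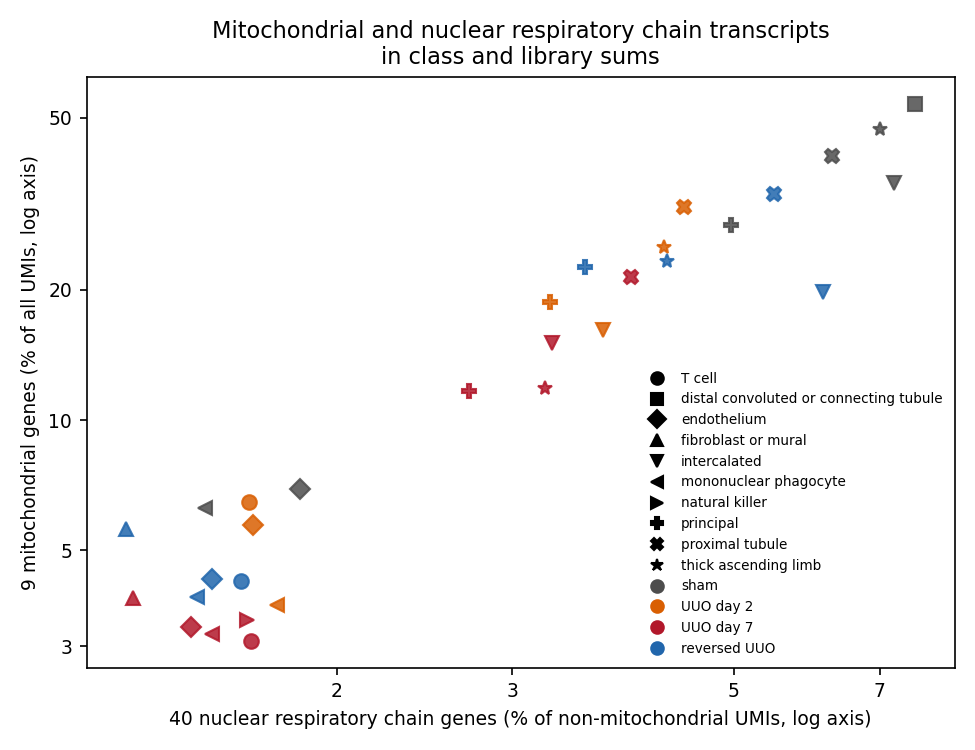
Percent of UMIs in the 9 mitochondrial genes against percent of non-mitochondrial UMIs in 40 nuclear-encoded respiratory chain genes, both on log axes, for class and library sums of at least 30 cells. Colours are libraries and symbols are classes; tubule sums lie apart from endothelial, stromal and immune sums, and within each tubule class sham lies highest in mitochondrial share.

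Genes that maintain or read the mitochondrial genome were also counted. Of the 18 on that list (among them Tfam, which packages mitochondrial DNA, and Polrmt, its RNA polymerase), 17 were in the files. Over all cells, 7 were lower and 10 higher on day 2 than in sham, and 10 were lower and 7 higher on day 7 than on day 2, with medians of 0.09 and −0.03 against 0.53 and 0.14 over all genes tested. The 9 mitophagy genes gave 3 lower and 6 higher (median 0.30), then 6 lower and 3 higher (median −0.07). As a percent of non-mitochondrial UMIs the mitochondrial genome list held 0.0780%, 0.0529%, 0.0429% and 0.0560% in sham, day 2, day 7 and reversed UUO. The mitophagy list held 0.112%, 0.0915%, 0.0795% and 0.0924%. On that scale both were highest in sham and lowest on day 7. For reversed UUO relative to day 7 the medians of these lists were 0.01 and −0.01 against −0.06, and relative to sham they were 0.12 and 0.29 against 0.64. Over all cells both lists thus lay below the median of all genes in the 3 comparisons in which the mitochondrial genes were lower, and above it in the 1 in which they were higher. In the proximal tubule the mitophagy median was instead above that of all genes on day 2 relative to sham (0.32 against 0.29). It was also above on day 7 relative to day 2 (0.29 against 0.27) and was below in reversed UUO relative to day 7 (−0.42 against −0.28). Relative to sham, its value in reversed UUO was below as well (0.07 against 0.28). The mitochondrial genome list was level with all genes there on day 7 relative to day 2 (0.27 against 0.27). A list of genes that cell dissociation can induce holds Fos, Jun and Atf3, among others. Over all cells 10 of 10 were higher on day 2 than in sham, all past 2-fold (median 2.55), where 25.9% of genes were. In the proximal tubule 9 of 10 passed 2-fold upwards in that comparison (8.64% of genes), and Malat1 was higher by 1.40. In phagocytes 3 of 10 did (24.2% of genes). In phagocytes their median was 0.15 on day 2 relative to sham (7 of 10 higher, against 0.18 over all genes tested) and 0.94 in reversed UUO relative to sham (8 of 10 higher, against 0.16), and in both comparisons 9 of 9 mitochondrial genes were lower. On day 7 relative to day 2 it was −0.16 (8 of 10 lower, against 0.13), with 7 of 9 mitochondrial genes lower, and in reversed UUO relative to day 7 it was 0.69 (10 of 10 higher, against −0.06), with 9 of 9 higher. By sign alone, the dissociation and mitochondrial genes of phagocytes differed in opposite directions in 2 comparisons and in the same direction in 2. Of the opposite ones, day 2 relative to sham had a dissociation median close to that of all genes (0.15 against 0.18). In the proximal tubule 10 of 10 dissociation genes were lower in reversed UUO than on day 7 (median −0.88, against −0.28), where 9 of 9 mitochondrial genes were higher. On day 7 relative to day 2, 9 of the 9 tested there were higher (median 1.22, against 0.27), with 9 of 9 mitochondrial genes lower. Of these, 7 passed 2-fold, where 7.79% of genes did. Reversed UUO relative to sham had 10 of 10 higher (median 1.73, against 0.28), with 7 of 9 mitochondrial genes lower. There 8 passed 2-fold, where 8.77% of genes did. Whether dissociation raised the genes of this list was not tested, and neither was its part in the mitochondrial values.

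A limit on the mitochondrial share, a common step in single-cell work, removes classes unequally here. With no limit, proximal tubule cells were 85.7% of the classed sham cells. The limits were set on the share of all 13 mt- genes. A limit of 50% left the proximal tubule part at 85.4%, and a limit of 20% brought it to 43.0% (95% exact interval 38.7 to 47.4%). A limit of 10% brought it to 19.7% (15.5 to 24.5%) and a limit of 5% to 12.3% (8.17 to 17.5%). On day 7 the same limits gave 4.60%, 4.33%, 2.07%, 0.532% and 0.167%. After reversal, they gave 44.2%, 40.3%, 13.1%, 4.40% and 2.06%, and the phagocyte percent went from 19.4 to 21.5, 34.8, 39.4 and 40.8%. A share of all 13 mt- genes above 20% was found in 94.7% of sham proximal tubule cells and in 8.33% of sham phagocytes (4 of 48).

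Several members have near-identical copies in the nuclear genome, which bears on how reads are counted. Copies were looked for among annotated transcripts alone, so nuclear sequence outside them was not searched. On chromosome 1 of GRCm38, at 24613974 to 24614651, the pseudogene Gm10925 matches mt-Atp6 at 678 of 678 aligned bases. Its neighbours Gm28437 (24613189 to 24613971) and Gm28661 (24614885 to 24615565) match mt-Co3 at 783 of 783 and mt-Co2 at 681 of 681 bases, and Gm29216 (24615706 to 24616197) matches mt-Co1 at 482 of 483 bases. Gm28439 matches mt-Nd4 at 876 of 876 bases. Copies of at least 99% identity thus cover 99.6% of mt-Atp6, 99.9% of mt-Co3, 99.6% of mt-Co2, 63.6% of mt-Nd4 and 31.3% of mt-Co1, and annotated copies of that identity cover 0% of mt-Nd1, mt-Nd2, mt-Nd5 and mt-Cytb. None of these copies is among the genes of the droplet files; of the matches found, Gm4076, a 95.2% match to mt-Nd5, is the one listed there.

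The Smart-seq2 wells gave another make-up of the 9 genes, with and without annotated copies. Of 768 wells, 724 had at least 1000 genes, and 713 of them met the phagocyte class. Over the 724 wells the median share of reads in the 9 genes was 2.38% (quartiles 1.74 and 3.49%); reads are not UMIs, so this level is not compared with the droplet shares. mt-Co1 held 37.4% of the reads of the 9 genes, mt-Cytb 28.6% and mt-Nd1 18.4%. mt-Nd5, with no annotated copy of that identity, held 6.87%, and mt-Nd4, copied over 63.6% of its length, held 6.61%. mt-Nd2, also with no such copy, held 1.97%. Of the other mt- genes, mt-Atp8 has no such copy either. It gave 0.118 reads per 1000 of the 9 genes in the wells, against 2.25 UMIs per 1000 over all sham droplet cells. mt-Nd6, likewise without such a copy, was instead higher in the wells on that scale. The wells were mostly phagocytes, whereas proximal tubule cells were 77.2% of the sham droplet cells. Nuclear sequence outside annotated transcripts was not searched, and mt-Atp8 shares 43 bases with the copied mt-Atp6. Whether the low mt-Atp8 level in the wells goes with a copy was thus not tested. mt-Co2 held 0.0500% (4400 reads), mt-Co3 0.0773% (6805 reads) and mt-Atp6 0.0607% (5337 reads). In the droplet phagocytes these last 3 genes held 9.16 to 10.3%, 20 to 22.9% and 22.2 to 24.7%. The nuclear copies carried 6168 (Gm10925), 7403 (Gm28437) and 2667 (Gm28661) reads, or 116, 109 and 60.6 per 100 reads of the mitochondrial gene, while Gm29216 carried 0.221 per 100 of mt-Co1. The part of the copies in these values was not tested. Per length, mt-Cytb (31.6 of 100) and mt-Co1 (30.6) led the wells, followed by mt-Nd1 (24.3). How reads with several matches were treated is not given in the sources used here, so levels of mt-Co2, mt-Co3 and mt-Atp6 in the wells are uncertain, as are droplet levels of the copied genes to the extent that such reads were dropped.

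**Figure D5:**
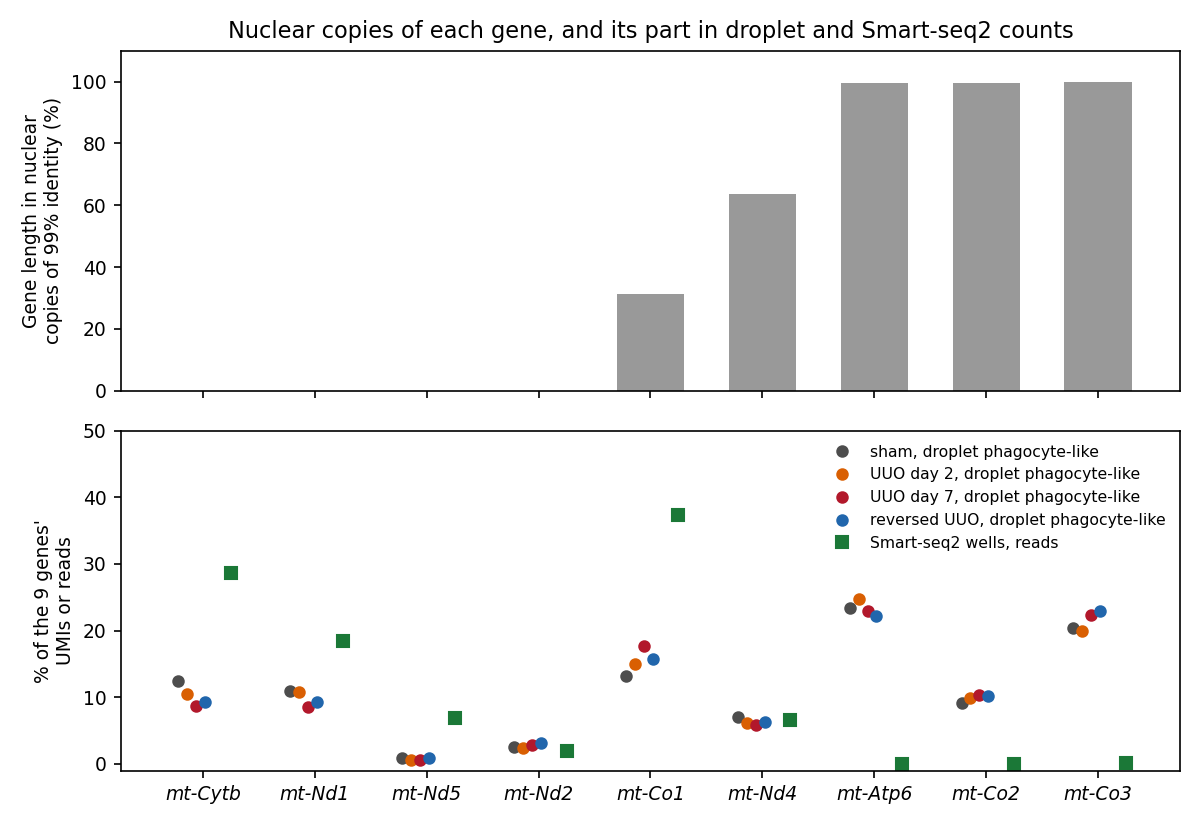
Upper panel, percent of each gene's length covered by nuclear copies of at least 99% identity; lower panel, percent of the 9 genes' UMIs in droplet phagocytes of each library (circles) and of their reads in the Smart-seq2 wells (squares). The 3 genes covered over 99% hold 9.16 to 24.7% of the droplet UMIs and under 0.1% of the well reads.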

How the data were processed

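The deposited matrices of the 4 droplet libraries hold UMI counts, and the deposited Smart-seq2 table holds read counts of each well, as whole numbers with unequal totals, not normalized. The submitters' processing notes name Cell Ranger, STAR, GRCm38 and mm10, without saying which step each served; counting of the wells by featureCounts is known from the name of the deposited table alone, and no per-sample column was left unused. Per the labels' protocols, tissue was digested on ice and dead cells were removed by a DAPI sort. The members and all gene lists were chosen with earlier results of these data known.

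Cells with at least 200 genes were kept. A class needed at least 3 of its 8 markers and a lead of 2 over any other class, and classes under 20 cells were left undescribed, except that the erythroid class is given by its range at the end. No doublet caller was run: cells meeting several classes stayed unclassed, and leaving out the top 5% of UMIs was an alternative. Intervals are 95% exact Clopper-Pearson for shares and exact conditional binomial for ratios, and cover counting error only. Per gene log2 ratios used CPM plus 1 over genes with at least 30 summed UMIs, which understates changes of low genes. The likeness used log2 of CPM plus 10 in sums of at least 30 cells and genes with at least 50 CPM in at least 1 of every 3 sums. Named genes were the members, the other mt- genes, the nuclear copies, the gene lists and the 10 most alike genes. Gene positions and transcripts came from GENCODE M21, to which all 13 identifiers matched, and copies were found with blastn; 1 symbol of the mitochondrial expression list was not matched. Software was Biopython 1.88, matplotlib 3.10.9, pandas 2.3.3, scipy 1.17.1 and numpy 2.4.6 under Python 3.11.15, and each statistic across genes was tested on simulated data.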

Additional observations from a re-analysis of the deposited data

Results flagged for a closer look

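Natural killer-like cells differed in direction from the other classes on day 7 against day 2. Their summed share of the 9 genes was 3.44% on day 7 (39 cells) and 3.26% on day 2 (23 cells), a log2 ratio of 0.0776, or 0.08 (exact interval 0.01 to 0.15), while every other class described in both libraries was lower on day 7. Their median share was lower on day 7 (2.35% against 3.18%), and the highest day 7 cell had a share of 25.9%. The difference between the classes was not tested.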

How the results depend on the processing

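The alternatives to the 12 summed-share comparisons all kept their direction; in 67 the value moved beyond counting error and in 9 it did not. Values are log2 ratios for the same 4 comparisons as in the text above (from sham to day 2, from day 2 to day 7, from day 7 to reversal, and reversal relative to sham), and the cause of each move was not tested. Over all cells they were −1.09, −1.75, 1.78 and −1.06 with all 13 mt- genes, −1.10, −1.81, 1.79 and −1.12 with no gene minimum and −0.97, −1.86, 1.85 and −0.98 without the top 5% of UMIs. As means of the share per cell they were −0.75, −1.94, 1.77 and −0.93. As such means with the sham mix of wide groups they were −0.36, −0.53, 0.53 and −0.36. Both were chosen after seeing the data. In cells with at most 50% mitochondrial UMIs they were −1.35, −1.23, 1.48 and −1.10 over all cells, −0.49, −0.26, 0.51 and −0.24 in proximal tubule and −0.78, −0.20, 0.30 and −0.68 in phagocytes. As medians over cells they were −1.37, −2.34, 2.14 and −1.57 over all cells, −0.52, −0.26, 0.55 and −0.23 in proximal tubule and −0.50, −0.31, 0.31 and −0.50 in phagocytes. Scaled to non-mitochondrial UMIs they were −1.53, −1.97, 1.99 and −1.52 over all cells, −0.62, −0.74, 0.90 and −0.45 in proximal tubule and −0.78, −0.23, 0.30 and −0.71 in phagocytes. Classes called from 2 of 8 markers gave −0.39, −0.55, 0.64 and −0.29 in proximal tubule and −0.71, −0.25, 0.29 and −0.68 in phagocytes. Classes called at 500 non-mitochondrial UMIs per cell gave −0.16, −0.70, 0.65 and −0.22 in proximal tubule and −0.92, −0.33, 0.49 and −0.76 in phagocytes. Phagocytes with no proximal tubule marker UMI, of which sham held 5, gave −1.79, −0.10, 0.40 and −1.5. Sham held too few of those phagocytes to describe, so the first and last of these values carry no weight. Of 72 alternatives for the make-up of all cells, 61 moved the value and 11 did not. Of 36 gene differences between libraries, the mean over cells with at least 100 UMIs of the 9 genes turned 4. mt-Atp6 became 20.1% in both reversed UUO and sham (20.12 and 20.09%) where it had been 19.2 and 20.02%, and mt-Nd4 became 7.60 against 8.41% where it had been 8.284 and 8.264%. mt-Nd2 became 2.96% on day 7 against 2.97% on day 2 (from 3.23 and 3.10%), and mt-Nd5 became 0.698 against 0.721% (from 0.743 and 0.704%). The limit of 50% turned 1, mt-Nd4 in reversed UUO against sham (8.16 and 8.29%). No paired analysis was possible because each group is 1 droplet library without a shared replicate number, and leaving out a replicate was not possible for the same reason. The exact intervals cover counting error within a library and not the spread between libraries, which 1 library per time point cannot give.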

Other observations

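Erythroid-like cells, looked at after their values were seen, numbered under 20 in every library, so their values are only listed. On day 7, 8 such cells had shares of the 9 genes between 0.278 and 0.701% (median 0.631%), and the only such cell of day 2 had 0.689%. After reversal 6 such cells ranged from 0.811 to 91.8% (median 1.09%). Sham held no such cell.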
